A study of Mus musculus with 96 samples.

Results

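The comparison described here is that of heterozygous Q50 knock-in mice with their wild-type (WT) littermates at 6 months of age, in the cortex. It holds 16 of the 96 libraries of the series, 8 Q50 and 8 WT, and in each group 4 mice were female and 4 were male. The libraries were chosen by their titles, which give genotype, age, sex and, for WT mice, the line they came from, and no measured value was used. Q50 mice were heterozygous for *Htt* tm3Mem, a knock-in that places human *HTT* exon 1 with 50 CAG repeats in the mouse gene, so that the change was present in all tissues from birth, and their other *Htt* copy was WT. Their WT littermates had no knock-in. The labels give the strain of both groups as C57BL/6 and state that Q50 mice were housed with WT and Q50 mice. According to the methods of the study, Q50 males had been crossed with C57BL/6J females. Each library came from the cortex of 1 mouse. For comparison, values are given from Q50 mice and WT littermates aged 10 months. Others come from heterozygous knock-in mice with 20 repeats (Q20), WT littermates of the Q20 line, and heterozygous mice with 92 (Q92) or 140 (Q140) repeats. Most of these were from mice aged 6 months and some from mice aged 10 months. Each group had 8 libraries.

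*HTT* encodes huntingtin, and an expanded CAG repeat in its first exon causes Huntington's disease, an inherited neurodegenerative disorder that affects the striatum and the cortex. The Q50 allele has one of the shorter expanded repeats among the mouse lines of this kind, and the comparison with littermates asks whether such a repeat changes cortical microRNAs in mice of this age. MicroRNAs are short RNAs that are cut from hairpin precursors, called stem-loops, and that pair with messenger RNAs to lower their translation or stability. The tables give 1 value for each of 1187 stem-loops, named by accession only. No microRNA name, role or sequence is therefore attached to a stem-loop, markers of cell types could not be examined, and the single stem-loops described are limited to 2 that were higher and 2 that were lower in Q50.

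The totals of the 16 libraries ranged from 5317797 to 7403529 counts. They were 6433080 ± 346071 counts (SD, n = 8) in Q50 and 6133830 ± 653451 counts (SD, n = 8) in WT, a difference of 299244 counts with p = 0.271 in a two-sided exact permutation test, and the groups overlapped. Over the 13 libraries used in the fits the difference was 27334 counts, with an exact permutation p = 0.925. Counts were found in at least 1 of the 16 libraries for 944 stem-loops and in all 16 for 537. Each sample description also holds an L field, which the labels do not explain. It was L1 in 6 Q50 and 5 WT libraries and L2 in 2 Q50 and 3 WT libraries. A screen of the 48 libraries of this age, taken from the methods of the study, set 3 of these 16 libraries apart (Q50 male 1, WT female 2 and WT female 4). They were left out of the fits, which thus compared 7 Q50 with 6 WT libraries, and results with all 16 libraries are given where they differ. Bulk tissue was sequenced, and fewer cells of a type cannot be told apart from less RNA per cell.

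No stem-loop passed an FDR of 0.05 between Q50 and WT littermates at 6m. The edgeR quasi-likelihood test, with sex and L field as covariates, was run on 419 stem-loops, which hold 99.97% of the counts, and called 0 (0%). The smallest FDR was 0.989. At an unadjusted p under 0.05 there were 11 stem-loops (2.63% of those tested), 7 higher and 4 lower in Q50, with log2 changes from -0.78 to 0.70. The DESeq2 Wald test also called 0 and gave 14 stem-loops at an unadjusted p under 0.05. With all 16 libraries, edgeR called 0 of 414 and gave 12. No stem-loop of the 419 had all Q50 libraries above or all below the WT libraries, whether 13 or 16 libraries were used (0% in each direction).

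Levels are given in CPM, counts scaled to a common library total. TMM scaling places the centre of the log2 changes near 0, and changes are therefore relative to the bulk of stem-loops. Of the 419 stem-loops, 200 had a higher and 219 a lower fitted level in Q50, and the median log2 change was -0.0048, with an interquartile range from -0.061 to 0.059. A log2 change of more than 0.5 in either direction was fitted for 15 stem-loops, 8 of which belong to a co-varying set described further on. None of the 15 passed the FDR threshold.

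**Figure D1:**
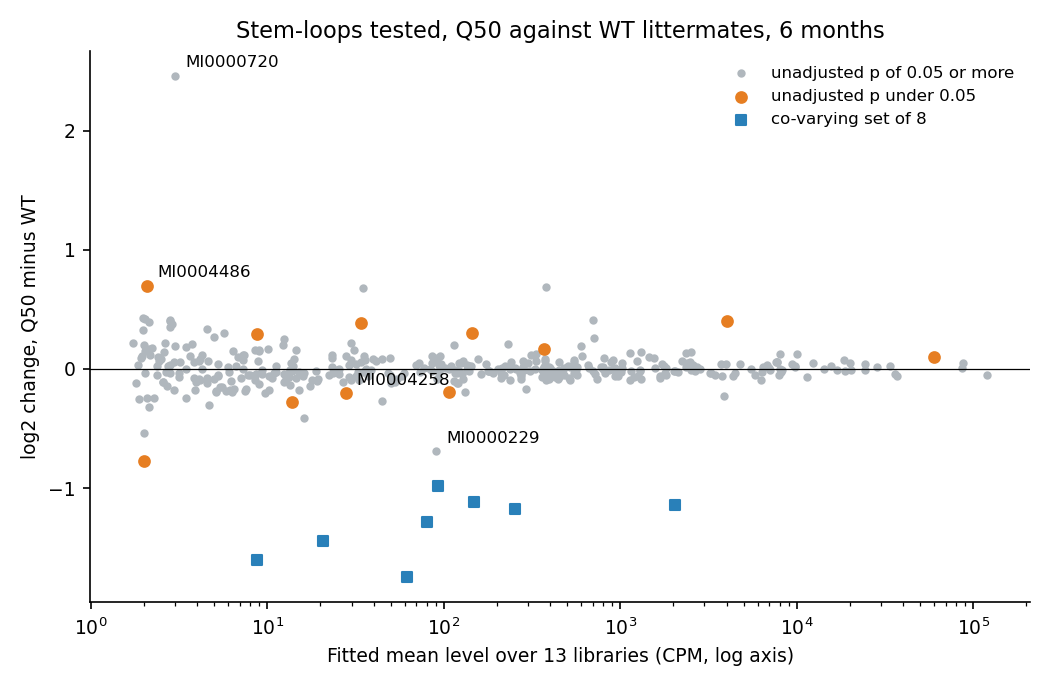
Log2 change between Q50 and WT littermates (vertical axis, positive where Q50 is higher) against fitted mean level in CPM (log axis) for 419 stem-loops, 7 Q50 and 6 WT libraries. Orange points are the 11 stem-loops at an unadjusted p under 0.05 and blue squares are the co-varying set of 8 stem-loops, all below 0; none of the points passed FDR 0.05.

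How large a change these libraries would still allow is given by the 95% intervals of the log2 changes. The whole interval lay within a 1.5-fold change in either direction for 349 of 419 stem-loops (83.3%) and within a 2-fold change for 396 (94.5%). Precision rose with level. The 88 stem-loops at 1000 CPM or more held 94.7% of the counts and had a median SE of 0.064, and for 86 of them the interval lay within 1.5-fold. Of the 222 stem-loops from 10 to 1000 CPM, 201 had such an interval, with a median SE of 0.086. Under 10 CPM the median SE was 0.195, and 62 of 109 intervals lay within 1.5-fold. The intervals are of single stem-loops and were not adjusted for the number tested.

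**Figure D2:**
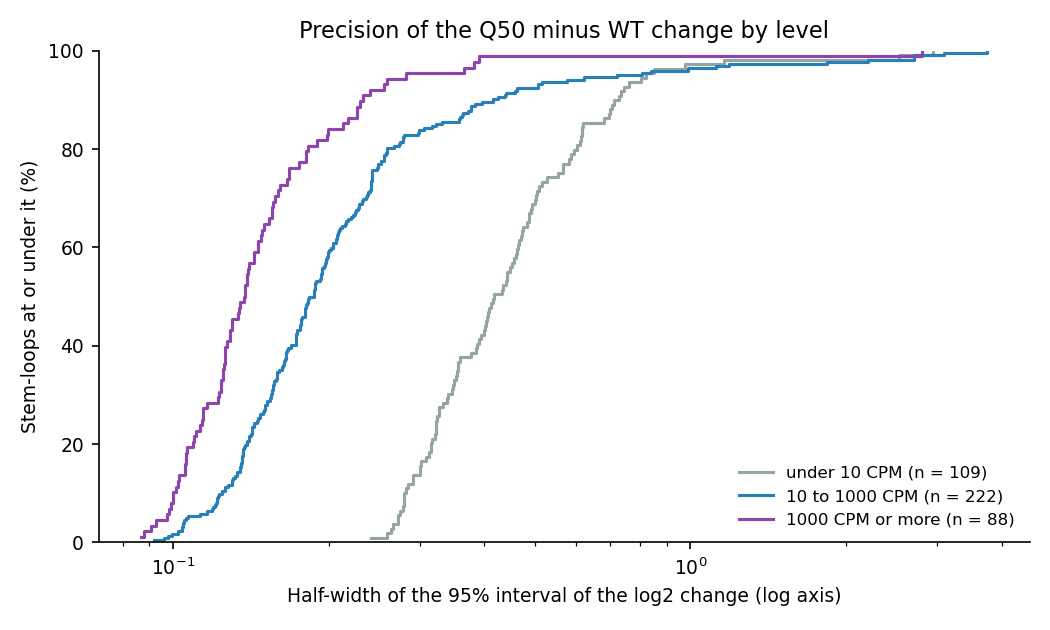
Share of stem-loops (vertical axis, %) whose 95% interval of the log2 change had at most the half-width on the horizontal axis (log axis), for 3 classes of mean level. The intervals were narrowest for abundant stem-loops, with median half-widths of 0.137 at 1000 CPM or more, 0.185 from 10 to 1000 CPM and 0.418 under 10 CPM.

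Among the 11 stem-loops at an unadjusted p under 0.05, 2 had a level of 1000 CPM or more, 6 lay between 10 and 1000 CPM and 3 lay under 10 CPM. The most abundant of them had a fitted level of 59955 CPM and a log2 change of 0.10 ± 0.043 (SE, 95% interval 0.0067 to 0.19), with an FDR of 0.989 by edgeR. Its 7 Q50 libraries ran from 59110 to 66740 CPM and its 6 WT libraries from 56570 to 62150 CPM, so that the groups overlapped.

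Of the stem-loops that were higher in Q50, MI0004486 had the smallest unadjusted p. It is 82 bases long by the lengths that the deposited tables imply, and its level was low, at 5 to 19 counts in the 16 libraries. Q50 libraries had 1.15 CPM at the lowest, 1.90 at the median and 3.02 at the highest, and WT libraries 0.927, 1.25 and 1.98 CPM. The groups overlapped, and the screened Q50 male 1 was the lowest Q50 library. The log2 change was 0.70 ± 0.23 (SE), or 1.62-fold (95% interval 1.15 to 2.29-fold), with an FDR of 0.989 by edgeR. The DESeq2 Wald test gave 0.70 ± 0.36 (SE), with an unadjusted p of 0.0542. Over 30 alternative fits the log2 change ran from 0.48 to 0.87, and the smallest FDR was 0.268 by edgeR. The same contrast in the Q20 line had the opposite sign, at -0.33 ± 0.22 (SE), with medians of 1.32 CPM in Q20 and 2.02 CPM in its WT littermates. The difference between the 2 contrasts was 1.04 ± 0.30 (SE, log2), the smallest unadjusted p of that comparison, with an FDR of 0.875 by edgeR. At 10m the log2 change in the Q50 line was 0.045 ± 0.31 (SE).

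MI0004258 had the smallest unadjusted p among stem-loops that were lower in Q50. It is 100 bases long and had 138 to 244 counts in the 16 libraries. Its level in Q50 was 24.1 CPM at the lowest, 27.8 at the median and 30.2 at the highest, against 27.8, 31.5 and 33.1 CPM in WT. Both groups were narrow and overlapped between 27.8 and 30.2 CPM. The WT median was the highest of the 12 groups of the series. The other medians ran from 23.6 CPM in WT littermates of the Q20 line at 10m to 30.5 CPM in Q20 at 10m. At 6m Q20 had a median of 27.8 CPM and its WT littermates 29.1 CPM. The log2 change was -0.20 ± 0.082 (SE), or 0.868 of the WT level (95% interval 0.768 to 0.982), with an FDR of 0.989 by edgeR. The log2 change was -0.021 ± 0.10 (SE) at 10m and -0.13 ± 0.087 (SE) in the Q20 line at 6m.

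MI0000229 was chosen individually, with earlier results of these data known. It is 61 bases long. Q50 libraries ran from 38.1 CPM through a median of 86.1 to 154 CPM, and WT libraries from 90.5 through 129 to 162 CPM. Of the 8 Q50 libraries, 3 had at most 40.4 CPM and 1 had 79.7 CPM, all below every WT library, and the other 4 lay within the WT range. The highest Q50 library was the screened male 1, without which the Q50 libraries ended at 105 CPM. The log2 change was -0.69 ± 0.32 (SE, 95% interval -1.42 to 0.030), with an FDR of 0.989 by edgeR.

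Across the other groups, MI0000229 had medians of 169 CPM in WT and 164 CPM in Q20 of the Q20 line at 6m. It had 39.8 CPM in Q92 and 45.5 CPM in Q140 of the same age, which have no WT littermates here. WT littermates of the Q20 line at 10m, without a knock-in, were as low, with a median of 38.5 CPM (33.7 to 50.9 CPM, 8 libraries). The other medians at 10m were 154 CPM in Q20, 56.3 CPM in Q92 and 81.5 CPM in Q140. In the Q50 line at 10m the medians were 141 CPM in Q50 and 151 CPM in WT littermates. The log2 change there was -0.043 ± 0.41 (SE). The change at 10m minus that at 6m was 0.66 ± 0.50 (SE, 95% interval -0.38 to 1.69, FDR 0.950 by edgeR). When WT mice of both lines and Q20 mice served together as controls, the log2 change at 6m was -1.07 ± 0.25 (SE), with an FDR of 0.0829 by edgeR. With those controls 55 of 436 stem-loops (12.6%) had an unadjusted p under 0.05 and 0 passed FDR 0.05.

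MI0000720, 89 bases long, had the highest fitted change, and its values fell into 2 separate ranges. Over the 96 libraries, 34 had at most 0.614 CPM and 62 had at least 2.05 CPM, with none between, and both ranges occurred in all 12 groups. Its estimated counts were not whole numbers in any of the 96 libraries, and how reads were divided between loci is not stated, so that its values are uncertain. In Q50, 1 of 8 libraries lay in the low range and the others reached from 2.95 to 10.1 CPM. In WT littermates, 5 of 8 lay in the low range, and the remaining 3 had 2.92, 3.32 and 9.67 CPM. The log2 change over the 13 libraries was 2.46 ± 1.13 (SE, 95% interval -0.067 to 4.99), with an FDR of 0.989 by edgeR, and with all 16 libraries it was 1.06 ± 0.83 (SE). This value rested on few libraries and on the tool. Without WT male 4 it was 4.36 ± 1.04 (SE, FDR 0.809 by edgeR), the DESeq2 Wald test gave 5.22 ± 1.49 (SE, FDR 0.185), and with WT mice of both lines and Q20 mice as controls it was 0.41 ± 0.78 (SE). No other stem-loop was called in any alternative fit of this contrast. In the L1 libraries alone, with 5 Q50 and 3 WT libraries, it passed the threshold with an FDR of 0.0243 by edgeR. All 3 WT libraries there had at most 0.257 estimated counts, and no fold is given against them. The 2 WT libraries of L1 that had been screened out had 2.92 and 9.67 CPM, and with the screened libraries put back 0 of 414 stem-loops passed in L1. The log2 change was 0.38 ± 0.88 (SE) at 10m.

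**Figure D3:**
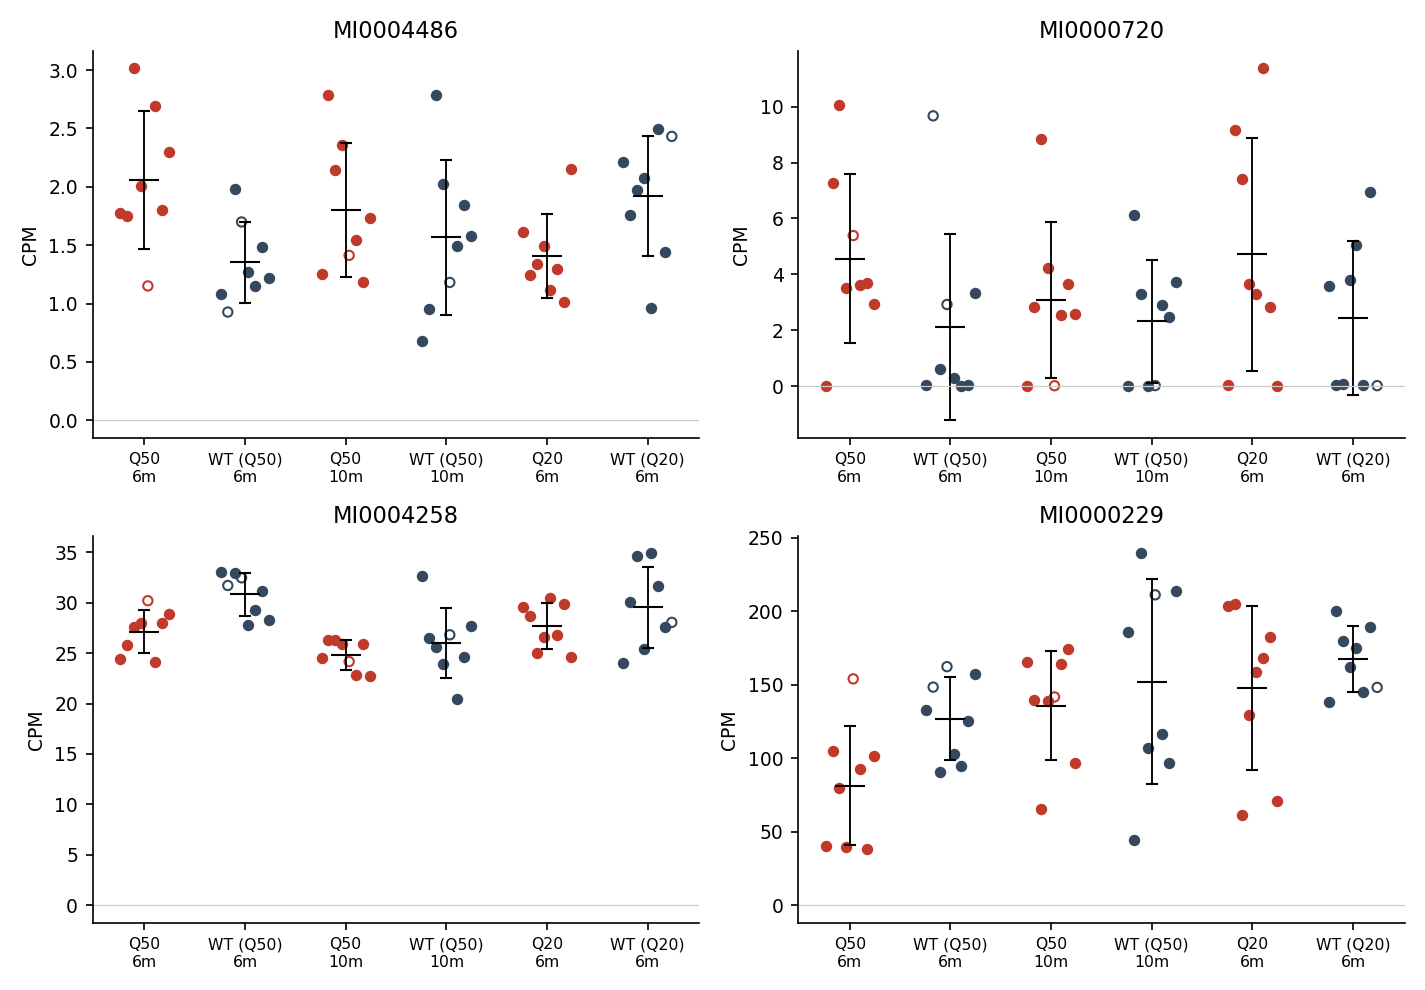
Level in CPM of 4 stem-loops, 1 point per library, in Q50 and WT littermates at 6m, the same groups at 10m and the Q20 line with its WT littermates at 6m (8 libraries each). Bars give mean ± SD and open points are libraries left out of the fits; at 6m the Q50 and WT libraries overlap in every panel, and MI0000720 is either near 0 or above 2 CPM.

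The largest differences between single libraries came from 8 stem-loops whose levels moved together from library to library. The set was found from the 96 libraries as the largest cluster of stem-loops in which every pair correlated at r of 0.9 or more, and the smallest r within it was 0.935. In the 16 libraries the first principal component held 64.7% of the variance, and the set carried 93.6% of its squared loadings. Q50 libraries lay between -5.32 and 9.63 on this component and WT libraries between -5.99 and 14.2, so that it did not separate the genotypes.

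The summed level of the set was 715 CPM at the lowest, 1028 at the median and 19868 at the highest in Q50. In WT littermates it was 625, 5033 and 63183 CPM. More than 5000 CPM was reached by 2 of 8 Q50 and 4 of 8 WT libraries, and the groups overlapped over most of their range. The mean of log2(summed CPM + 1) was 10.8 ± 1.75 (SD, n = 8) in Q50 and 11.8 ± 2.58 (SD, n = 8) in WT. The difference of -0.94 was smaller than either SD, with p = 0.408 in a two-sided exact permutation test. Over the 13 libraries used in the fits it was -0.42, with an exact permutation p = 0.646. Within the L field the difference took opposite signs. It was -2.62 in L1 (6 Q50 and 5 WT libraries, exact permutation p = 0.0693) and 2.35 in L2 (2 Q50 and 3 WT libraries, p = 0.10 in the exact permutation test, the smallest that these numbers allow). In L2 both Q50 libraries, at 2628 and 5431 CPM, were above all 3 WT libraries, at 625 to 918 CPM.

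All 8 members of the set had a lower fitted level in Q50, with log2 changes from -0.98 to -1.75, and 0 of 8 had an unadjusted p under 0.05, beside 2.63% of all stem-loops tested. Since they vary together, the 8 are close to 1 measurement. Their SE of 0.82 to 1.67 stood against a median of 0.093 in the other stem-loops tested. The 3 screened libraries were the 3 with the highest level of the set. When the 6 libraries above 5000 CPM were left out instead, 0 of 424 stem-loops passed FDR 0.05, 26 had an unadjusted p under 0.05 and the smallest FDR was 0.0972 by edgeR. The part of the set in the other changes was not tested beyond this and a fit with its level as a covariate, which called 0 of 411.

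**Figure D4:**
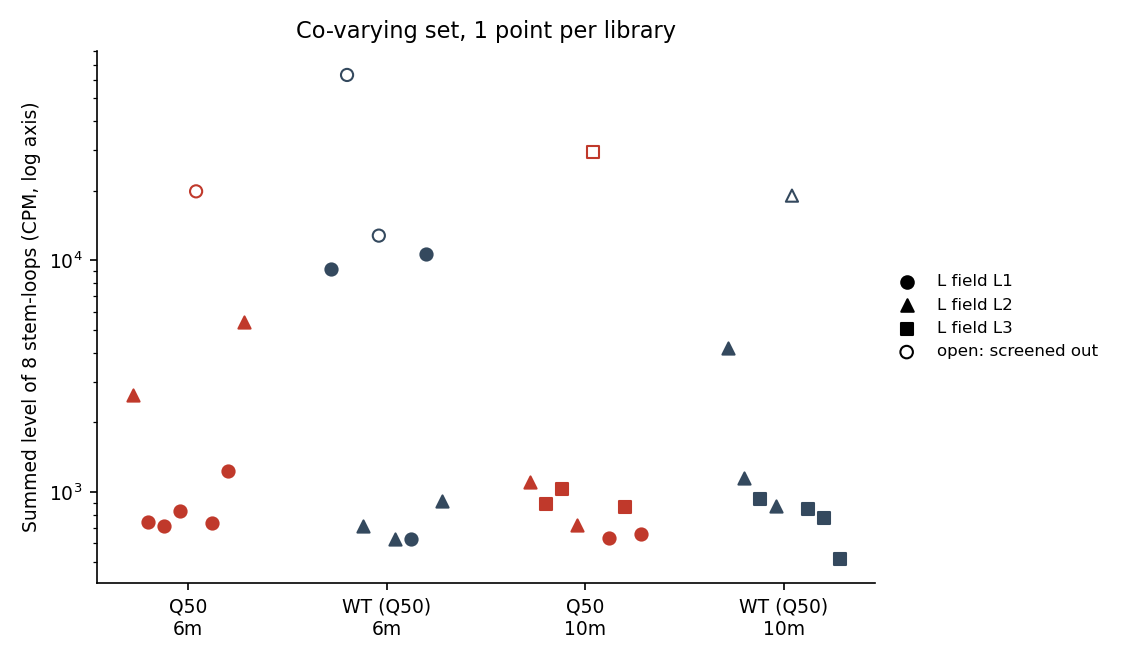
Summed level of the 8 co-varying stem-loops in CPM (log axis), 1 point per library, for Q50 and WT littermates at 6m and 10m (8 libraries each). Symbols give the L field and open symbols the libraries left out of the fits; at 6m Q50 reaches from 715 to 19868 CPM and WT from 625 to 63183 CPM.

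A smaller cluster, found in the same way, held 3 stem-loops with a smallest r of 0.944 and a summed level dominated by 1 of them. It was picked out after its values had been seen, and no test of the cluster is given. The sum was 3552 CPM at the lowest, 5152 at the median and 8523 at the highest in Q50, and 3622, 3931 and 4537 CPM in WT. The WT libraries lay close together, with an SD of 302 CPM. The SD was 1894 CPM in Q50 and between 1686 and 4890 CPM in the 10 other groups of the series, so that this WT group was the one with a different spread. In this comparison 5 of 8 Q50 libraries were above all WT libraries. In the 13 libraries the members had log2 changes of 0.40 ± 0.17, 0.68 ± 0.38 and 0.69 ± 0.36 (SE), each with an FDR of 0.989 by edgeR. An unadjusted p under 0.05 was reached by 1 of the 3, beside 2.63% of all stem-loops tested. With all 16 libraries the changes were 0.41 ± 0.17, 0.84 ± 0.33 and 0.82 ± 0.32 (SE), each with an FDR of 0.991 by edgeR. All 3 then had an unadjusted p under 0.05, beside 2.9% of all stem-loops tested. Since the 3 vary together, they are close to 1 measurement. In the Q20 line at 6m they were 0.15 ± 0.22, 0.25 ± 0.43 and 0.27 ± 0.41 (SE). At 10m the members had 0.25 ± 0.30, 0.64 ± 0.44 and 0.55 ± 0.42 (SE), where WT littermates spread from 3337 to 7961 CPM and Q50 from 3529 to 9167 CPM.

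The difference between Q50 and WT littermates was also compared between the sexes, between the ages and with the Q20 line. None of these interactions gave a stem-loop past FDR 0.05. For females against males, 0 of 419 were called by edgeR and 9 had an unadjusted p under 0.05, against 0 and 13 by DESeq2. For 10m against 6m, these numbers were 0 of 437 and 15 by edgeR and 0 and 26 by DESeq2. For the Q50 line against the Q20 line at 6m, they were 0 of 436 and 8 by edgeR and 0 and 7 by DESeq2. A p above the threshold does not show that the differences were alike. In separate fits of each sex, the log2 change of MI0000229 was -0.97 ± 0.41 (SE) in females and -0.58 ± 0.37 (SE) in males. For MI0004258 it was -0.35 ± 0.14 in females and -0.10 ± 0.12 in males (SE). In the interaction fit, males minus females was 0.14 ± 0.68 for MI0000229 and 0.22 ± 0.16 for MI0004258 (SE). It was 0.29 ± 0.46 for MI0004486 and -2.55 ± 2.66 for MI0000720 (SE). Each of the 4 had an FDR of 0.986 by edgeR.

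The mice of the other age share no library with those at 6m. The Q50 contrast at 10m itself called 0 of 417 stem-loops by edgeR, with 19 at an unadjusted p under 0.05. It used 7 Q50 and 7 WT libraries after the screen. The 2 L1 libraries among them were both Q50. With L field as a covariate, the genotype difference therefore rests on the L2 and L3 libraries, as does every log2 change given at 10m. The fit of 10m against 6m differed, because L1 and L2 were not told apart there at 10m. The 2 L1 libraries thus entered its genotype difference. Over the 405 stem-loops tested at both ages and outside the co-varying set, the log2 changes at 6m and 10m correlated with Pearson's r of 0.050 and Spearman's rho of -0.064. This correlation is across stem-loops, which are not independent replicates. Of the 11 stem-loops at an unadjusted p under 0.05 at 6m, 8 had the same sign at 10m, and 1 had an unadjusted p under 0.05 there as well. Over all 412 stem-loops tested at both ages, r was 0.261 and rho -0.013, and 48.3% had the same sign (47.4% outside the set). The Q20 line and its own WT littermates at 6m share no library with the Q50 line either. Against them, r was 0.308 and rho 0.191 over 407 stem-loops outside the set, and 56.0% had the same sign. Over all 415 stem-loops tested in both lines, r was 0.075 and rho 0.140, and 55.2% had the same sign. Which of the 2 contrasts had the higher r thus depended on the set.

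**Figure D5:**
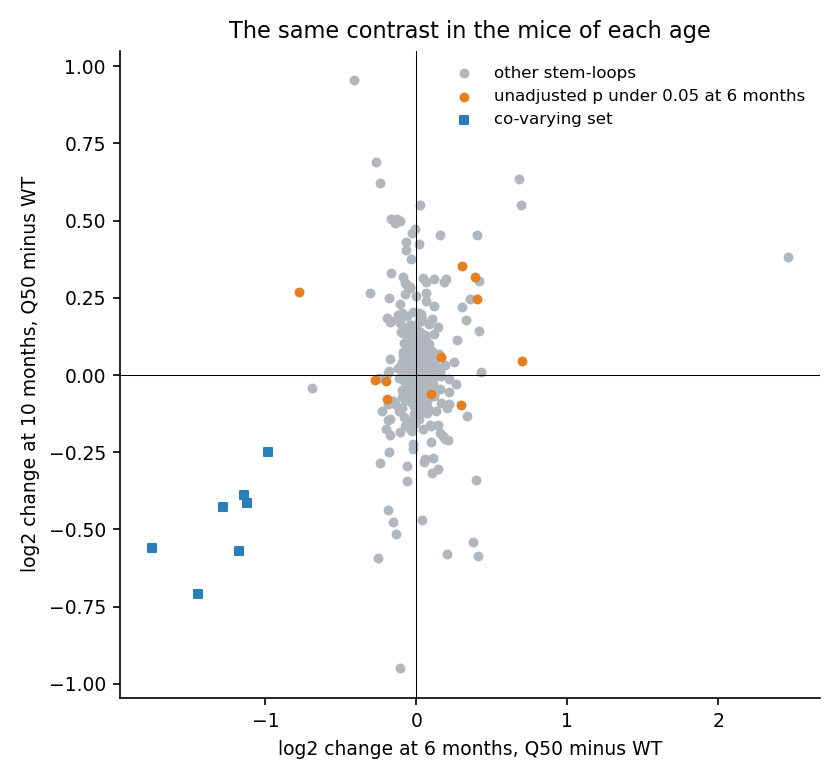
Log2 change between Q50 and WT littermates at 6m (horizontal axis) and at 10m (vertical axis), 1 point for each of 412 stem-loops tested at both ages, in separate mice. Orange points had an unadjusted p under 0.05 at 6m and blue squares are members of the co-varying set, which lie below 0 at both ages; the remaining points form no diagonal.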

How the data were processed

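Small RNA of the cortex was sequenced in all 96 libraries. According to the methods of the study, short single-end strand-specific reads were clipped, aligned to the mm10 genome with STAR and counted with HTSeq; the submitters' processing notes name CASAVA 1.8.2, and no other version was given in the sources used here. In 1 table the authors deposited an estimated count per stem-loop and library, without normalization, and in the other FPKM values, which were used only to derive stem-loop lengths. Of the 419 stem-loops tested, 116 had fractional counts in most of the 16 libraries, and these hold 57.5% of the counts. The sources do not say how a read that matches several loci was counted. Every column was matched to a sample by its description. No pair of libraries within a group agreed within sampling noise (chi-square per degree of freedom of at least 53.4 over 56 pairs).

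Counts were rounded and tested with edgeR 4.0.16 in R 4.3.3 (TMM, filterByExpr, robust quasi-likelihood test, Benjamini-Hochberg FDR over all stem-loops tested). The design was sex, L field and genotype, with L field used as the batch term. The methods of the study used DESeq2 on counts with outlying values replaced, with WT and Q20 mice together as controls. With these controls the study reported a few microRNAs past FDR 0.05 for Q50 in cortex at this age. None passed in its meta-analysis across ages. DESeq2 on such counts was run here as an alternative for the Q50 contrast, against WT littermates only (DESeq2 1.42.0). WT and Q20 mice served together as controls only in an edgeR fit, so the study's own test was not rerun. Libraries with a robust Z of network connectivity under -5 at their age were left out of fits, which removed 10 of 96 and 3 of these 16. CPM values of single stem-loops use TMM-scaled totals, and those of the co-varying set the plain total. SE and 95% intervals were derived from the quasi-likelihood F statistic, and the scripts were tested on simulated data.

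The members, lists and tests were chosen with earlier results of these data known. Because stem-loops carry no names, lists of microRNAs and of cell type markers could not be applied, and the co-varying set was rebuilt from correlations of log2(CPM + 1) at a mean of 10 CPM or more. The rule named the 10 stem-loops of smallest unadjusted p in each direction, list members and individual choices. It was reduced to 2 stem-loops in each direction after the tables had been seen, by smallest p, by a call in any alternative, or as an individual choice. Alternatives covered the tool, normalization, filter, screening, controls, covariates, subsets, replicate block and each replicate left out.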

Additional observations from a re-analysis of the deposited data

Results flagged for a closer look

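A library far from the rest was looked for in 14 sets of 8 values, and 3 sets had one. The sets were the 4 named stem-loops, the co-varying set, the cluster of 3 and the library total, in Q50 and in WT. The rule is meant to flag about 1 in 20 by chance. That rate cannot be relied on here, because the rule was run on untransformed values and the sets are not independent. For the co-varying set, Q50 male 1 had 19868 CPM, with the next Q50 library at 5431 CPM. WT female 2 had 63183 CPM of the set, with the next WT library at 12794 CPM. The same WT female 2 had 9.67 CPM of MI0000720, with the next WT library at 3.32 CPM. Both libraries were among the 3 left out of the fits by the screen.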

How the results depend on the processing

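The count of 0 stem-loops past FDR 0.05 was the same under all alternatives run except the L1 libraries alone, where it was 1. That call was lost when the screened L1 libraries were put back, an alternative chosen after seeing the data, as was leaving out libraries above 5000 CPM of the co-varying set. Unadjusted p values under 0.05 numbered 6 to 16 with each replicate left out. All 4 named stem-loops kept their direction in each alternative that tested them. The 3 interactions stayed at 0 calls in their 5 alternatives each. The set level difference turned from -0.94 to 2.35 in L2 alone, was -0.42 without the screened libraries, and ran from -1.43 to -0.34 with each replicate left out. The difference in library totals ran from 182668 to 480630 counts with each replicate left out and was 27334 counts without the screened libraries. It passed the threshold only without WT female 1 (exact permutation p = 0.0348). With the replicate block the count of calls stayed at 0 (14 at an unadjusted p under 0.05), and the paired difference in set level was -0.94 (exact sign-flip p = 0.50). Same-numbered libraries did not deviate together (r from -0.79 to 0.65 over 8 pairs, above 0.1 in 2, and 1 library best matched by its own number), so the numbers were not taken as pairs. Litter was not modelled in any fit. According to the methods of the study, litters able to supply more animals were favoured, so some of these mice may share a litter. Depth limits stem-loops under 10 CPM, of which 62 of 109 have intervals within 1.5-fold.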
